A study of Mus musculus with 4 samples.

Results

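LHX5-FLAG bound 545 regions in the deposited peak list, and 330 of them carried no overlapping protein-coding gene in the list's own annotation column. These 330 peaks outside genes are described here, and the other 215 peaks, which overlap a gene, serve as the comparison. The data come from a ChIP-Seq experiment in Neuro2a, a mouse neuroblastoma cell line labelled with the strain C57BL/6. In ChIP-Seq, chromatin is fixed, sheared and precipitated with an antibody, and the sequenced fragments pile up as peaks where the protein was bound. In the LHX5-FLAG group, a stable Neuro2a line expressed LHX5 with a FLAG peptide under doxycycline control and received doxycycline, and in the FLAG-only group the cells were transfected with a vector for the tag alone. The sources used here do not say whether the FLAG-only cells received doxycycline. Each group has 1 anti-FLAG library and 1 input library, so no value has a replicate, and LHX5 was supplied from a transgene in a tumor line rather than studied in the embryonic hypothalamus that the study is about. The lists hold positions, gene assignments and distances but no read numbers, so the depth behind each peak is unknown.

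LHX5 is a LIM-homeodomain transcription factor of the early forebrain and hypothalamus. Its homeodomain binds AT-rich DNA built around the sequence TAAT, and its LIM domains bind cofactors, among them LDB proteins, for which LIM-only proteins such as LMO1 compete. Regulatory regions of developmental genes often lie far outside the gene, in introns of neighbors or in long stretches without genes, so that a peak between genes can be assigned to a gene only by position. The motif counted below is CTAATTAA or TTAATTAA on either strand, and overlapping sites were counted separately. The study derived this kind of motif from the same peak list, so that its presence in the peaks is a property of the list and not independent evidence.

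The sequences of 12 peaks outside genes are given first because they show the forms that the sites took beside genes of development (*Six3*, *Foxb2*, *Hand2*, *Runx3*, *Sox4*, *Uncx*, *Zeb2* and *Wnt9b*), in the long interval before *Cdh20*, in the peak with the most sites (*Alg14*) and in a peak without a site (*Dlx6*). All are from the plus strand of mm9 (NCBIM37), 5′ to 3′, with the motif in capitals.
Six3 peak, chr17:85894621-85894818: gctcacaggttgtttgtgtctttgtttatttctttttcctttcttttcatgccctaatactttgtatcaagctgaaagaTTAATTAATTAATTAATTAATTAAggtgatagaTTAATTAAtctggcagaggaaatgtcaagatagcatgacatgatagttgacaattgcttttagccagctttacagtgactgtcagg
Foxb2 peak, chr19:16958472-16958621: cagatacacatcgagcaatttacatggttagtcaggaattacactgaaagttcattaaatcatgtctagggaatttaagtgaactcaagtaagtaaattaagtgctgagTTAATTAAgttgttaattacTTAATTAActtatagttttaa
Hand2 peak, chr8:59567009-59567260: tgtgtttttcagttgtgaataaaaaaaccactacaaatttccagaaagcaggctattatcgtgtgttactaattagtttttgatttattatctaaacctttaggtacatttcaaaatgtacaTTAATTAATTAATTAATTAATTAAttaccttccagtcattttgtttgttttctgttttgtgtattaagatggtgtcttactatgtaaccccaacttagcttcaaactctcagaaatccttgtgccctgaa
Runx3 peak, chr4:134651055-134651343: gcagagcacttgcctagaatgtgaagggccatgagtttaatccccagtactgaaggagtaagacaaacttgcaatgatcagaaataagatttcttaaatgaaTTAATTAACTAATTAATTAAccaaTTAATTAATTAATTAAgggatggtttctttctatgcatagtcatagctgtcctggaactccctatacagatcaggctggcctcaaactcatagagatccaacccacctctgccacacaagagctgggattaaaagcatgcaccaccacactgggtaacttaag
Sox4 peak, chr13:29240893-29241102: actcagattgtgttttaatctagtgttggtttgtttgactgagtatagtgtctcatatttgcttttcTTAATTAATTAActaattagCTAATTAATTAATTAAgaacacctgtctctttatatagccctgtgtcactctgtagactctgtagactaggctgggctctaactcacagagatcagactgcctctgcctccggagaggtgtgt
Uncx peak, chr5:140015869-140016084: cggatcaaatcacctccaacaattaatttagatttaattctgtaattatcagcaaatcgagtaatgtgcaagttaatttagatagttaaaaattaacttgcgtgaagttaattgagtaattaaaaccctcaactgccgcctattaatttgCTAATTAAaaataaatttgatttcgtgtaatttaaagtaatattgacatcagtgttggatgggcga
Zeb2 peak, chr2:46064299-46064456: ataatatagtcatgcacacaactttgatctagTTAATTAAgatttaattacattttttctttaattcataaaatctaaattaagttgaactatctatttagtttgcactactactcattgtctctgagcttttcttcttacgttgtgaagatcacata
Cdh20 peak, chr1:105512232-105512427: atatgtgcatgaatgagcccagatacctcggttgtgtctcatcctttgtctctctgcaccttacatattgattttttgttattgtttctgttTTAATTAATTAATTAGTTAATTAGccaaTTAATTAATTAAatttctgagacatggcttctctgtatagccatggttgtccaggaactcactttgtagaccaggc
Cdh20 peak, chr1:105868799-105868944: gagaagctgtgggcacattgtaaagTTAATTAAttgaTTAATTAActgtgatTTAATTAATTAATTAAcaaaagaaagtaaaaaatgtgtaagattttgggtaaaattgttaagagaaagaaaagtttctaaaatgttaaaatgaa
Alg14 peak, chr3:120839319-120839455: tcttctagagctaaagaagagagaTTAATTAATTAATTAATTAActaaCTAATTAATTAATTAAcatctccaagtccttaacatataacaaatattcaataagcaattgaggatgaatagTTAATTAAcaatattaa
Wnt9b peak, chr11:103618846-103619032: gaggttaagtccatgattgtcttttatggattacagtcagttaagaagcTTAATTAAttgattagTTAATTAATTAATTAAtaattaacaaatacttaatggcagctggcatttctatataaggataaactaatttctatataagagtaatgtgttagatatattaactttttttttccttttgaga
Dlx6 peak, chr6:6719240-6719401: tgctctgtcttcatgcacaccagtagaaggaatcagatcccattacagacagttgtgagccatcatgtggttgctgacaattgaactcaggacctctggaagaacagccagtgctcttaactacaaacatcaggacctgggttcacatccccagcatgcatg

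From 3 longer peaks only the sites with 20 bases on either side are shown, because these genes, *Lmo1*, *Tbx3* and *Hand2*, are discussed below. The *Lmo1* peak is 484 bp long, the *Tbx3* peak 631 bp and this *Hand2* peak 367 bp.
Lmo1 peak, chr7:116334979-116335130: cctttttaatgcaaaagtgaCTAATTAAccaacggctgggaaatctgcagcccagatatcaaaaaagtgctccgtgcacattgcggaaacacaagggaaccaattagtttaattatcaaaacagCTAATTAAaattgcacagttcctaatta
Tbx3 peak, chr5:119944777-119944824: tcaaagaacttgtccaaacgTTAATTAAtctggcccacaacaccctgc
Hand2 peak, chr8:59493031-59493078: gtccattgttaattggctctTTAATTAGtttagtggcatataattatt

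The motif was present in 127 of the 330 peaks outside genes, or 38.5% (95% exact binomial interval 33.2% to 44.0%, which covers counting error only), against 36.3% of all 545 peaks. Inside genes it was present in 71 of 215 peaks, or 33.0% (26.8% to 39.7%), a difference that did not pass the test (p = 0.203, adjusted p = 0.366, Fisher's exact test with both sides counted, adjusted by Benjamini-Hochberg over 9 tests). Of 657 windows with the lengths of the outside peaks, placed 10 kb beyond their edges, 8 held the motif, or 1.22% (adjusted p = 2.57e-57 by Fisher's exact test). Because the study derived this kind of motif from the same list, an excess over the windows was built in, and the test is not independent support. The same limit holds for its core TAATTA below. In the FLAG-only list, 1 of the 35 peaks outside genes held it, or 2.86% (0.0723% to 14.9%). The shorter core TAATTA was present in 150 of the 330 peaks, or 45.5%, and in 35 of the 657 windows, or 5.33%. Among the 203 outside peaks without the longer motif, 23 held TAATTA, or 11.3%, against 15 of the 400 such windows beside them, or 3.75% (adjusted p = 0.000999, Fisher's exact test, over 7 tests chosen after values had been seen). Of 10 sequence cores of other factor families, 4 were more frequent in the outside peaks than in the windows and 6 less, with differences from -3.27 to 2.07 points, and for all 10 the share in the windows lay within the exact interval of the outside peaks. AGATAA, the core of Gata sites, was in 13.0% of the outside peaks and 10.96% of the windows, and ACAAAG, the core of Sox sites, in 15.8% and 19.0%. These tests describe the list of 1 library and not a difference between replicated conditions. Those against windows did not pair each window with its peak.

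**Figure D1:**
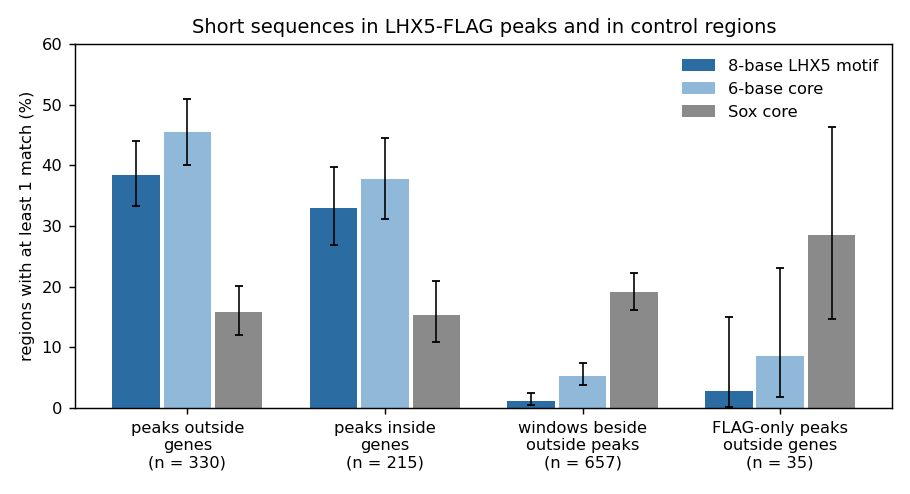
Share of regions (%, y axis) with at least 1 match to the 8-base motif, the 6-base core TAATTA or the Sox core ACAAAG, for 330 LHX5-FLAG peaks outside genes, 215 inside genes, 657 windows beside the outside peaks and 35 FLAG-only peaks outside genes. Bars give the share and error bars the 95% exact binomial interval; the 8-base motif reached 38.5% and 33.0% in the LHX5-FLAG peaks and 1.22% in the windows, while the Sox core was at 15.8% and 19.0% in outside peaks and windows.

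The 127 motif-bearing peaks outside genes held 391 sites. A site stood alone in 27 peaks, 52 peaks held 2 to 3 sites, and 48 peaks, or 37.8%, held at least 4. Most sites, 286 or 73.2%, began with T, which makes them the palindrome TTAATTAA. The form CTAATTAA was the only form in 20 peaks, TTAATTAA in 52, and 55 peaks held both. The sites lay close together. Of the 264 pairs of adjacent sites, 155 (58.7%) were 4 bp apart, the offset at which TTAA repeats itself, and are overlapping matches. The pattern allows no other offset under 8 bp. A further 95 pairs were 8 to 50 bp apart. In the *Six3* peak, 5 of the sites form a run of TTAA of 24 bp, followed after a short spacer by the sixth, and the *Hand2* peak at chr8:59567009-59567260 holds a run of the same length. The longest run in an outside peak was 28 bp, shared by 3 peaks, and the longest inside a gene was 40 bp. Runs of at least 3 TTAA units were present in 53 outside peaks, or 16.1%, and in 30 inside peaks, or 14.0% (adjusted p = 0.611, Fisher's exact test), and in 1 of the 657 windows. The 11 outside peaks with at least 6 sites were assigned to *Alg14* (8 sites), *Nudcd2* and *Gm10238* (7 each), and *Six3*, *Runx3*, *Cdh20*, *Neil1*, *Pik3c2a*, *Trrap*, *Gm10335* and *2700029M09Rik* (6 each). The site nearest to the middle of a peak was a median of 20.5 bp away (95% interval 13.5 to 24.5), against 12.5 bp (7.5 to 18.5) inside genes.

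Peaks with and without the motif differed in base composition and in how much of their sequence occurs elsewhere in the genome. Motif-bearing outside peaks had a median GC content of 31.8% and a median length of 198 bp, and those without the motif had 46.2% and 164 bp. Of the 59 outside peaks under 30% GC, 50 held the motif, or 84.7% (73.0% to 92.8%), whereas 0 of the 33 windows under 30% GC did (upper limit 10.6%). This contrast, too, uses a motif derived from the peak list. Of the 65 peaks with at least 50% GC, 1 held it. Repeated sequence was measured by the share of a peak's 32-bp words that occur more than once on both strands of the chromosomes. By this measure 177 outside peaks held no repeated word, and 40 consisted only of repeated words. Among the 203 outside peaks without the motif, 73 (36.0%) had over 50% repeated words, against 15 of 127 (11.8%) with the motif (adjusted p = 5.92e-06, Fisher's exact test, among the 7 later tests). The windows beside the peaks without the motif stood at 18.4% (74 of 403, adjusted p = 1.15e-05, Fisher's exact test), and those beside the peaks with it at 23.6% (60 of 254, adjusted p = 0.00866). These tests took peaks and windows as independent and did not use their pairing. Over 50% repeated words was thus more frequent in the motif-free peaks than in the windows beside them, and less frequent in the motif-bearing peaks. Only exact copies of 32 bp count here, so repeats with diverged copies can go uncounted. Peaks outside genes as a whole had over 50% repeated words in 88 of 330 cases (26.7%) and peaks inside genes in 24 of 215 (11.2%, adjusted p = 1.82e-05, Fisher's exact test). The surroundings of the inside peaks were not compared. The median word of 17 outside peaks occurred at least 1000 times in the genome, up to 19424.5 copies in a peak of 125 bp between *Ppp1r3a* and *Foxp2*, and 0 of these 17 peaks held the motif. In the FLAG-only list, 19 of the 35 outside peaks (54.3%) had over 50% repeated words. How reads that map to several places were treated is not given in the sources used here, and the part of such reads in these peaks was not tested.

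**Figure D2:**
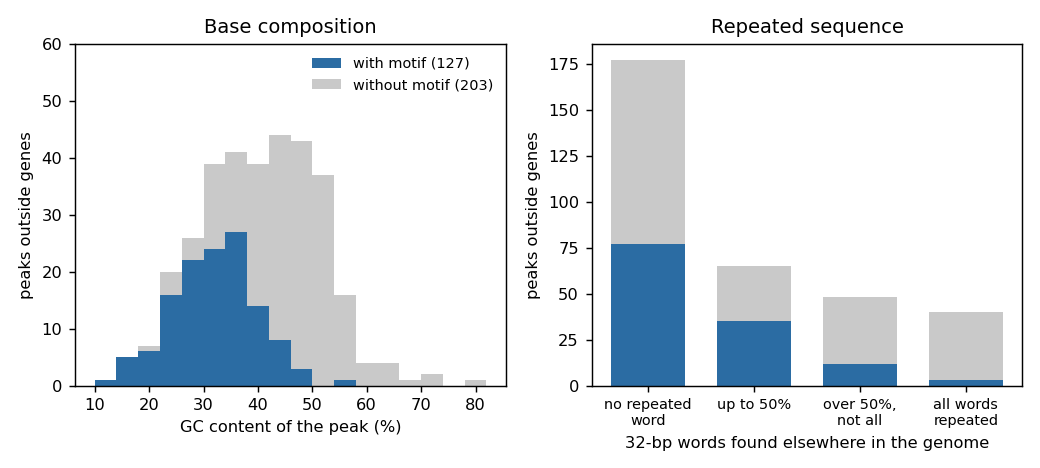
Left, number of LHX5-FLAG peaks outside genes (y axis) by GC content (%, x axis), with the 127 motif-bearing peaks in blue and the 203 others in grey, stacked. Right, the same peaks by the share of their 32-bp words that occur elsewhere in the genome; 77 of the 177 peaks with no repeated word held the motif and 3 of the 40 peaks made only of repeated words did.

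The outside peaks were short, and richer in A and T than the peaks inside genes. Their length had a median of 170.5 bp (95% interval 165 to 178, range 73 to 5929), and 302 of the 330 were at most 300 bp long. The share longer than the median of all peaks was 48.2% outside and 51.2% inside genes (adjusted p = 0.611, Fisher's exact test). Their median GC content was 41.0% (39.0% to 42.5%), against 44.0% for peaks inside genes and 42.9% for the windows. A GC content above the median of all 545 peaks was found in 148 outside peaks (44.8%) and 124 inside peaks (57.7%, adjusted p = 0.0172, Fisher's exact test). No values are given for windows beside the inside peaks, so a difference between peaks is not separated here from one between their surroundings. The 5 longest outside peaks were assigned to *Gm17495* (5929 bp, 64.4% GC), *Gm8597* (1453 bp), *Gm17379* (1212 bp), *Poldip3* (686 bp) and *Tbx3* (631 bp), and of these the *Tbx3* peak held the motif. The *Gm17495* peak overlapped the pseudogene *AY036118*, and the *Poldip3* peak a U12 small nuclear RNA gene. Of the 330 peaks, 3 overlapped a protein-coding gene of the GENCODE annotation used here, although the list gives none, and 21 overlapped genes of other types, among them 7 with long intergenic noncoding RNA genes and 3 with small nuclear RNA genes. Only 1 outside peak, assigned to *Ap2b1* and lying on a U2 small nuclear RNA gene, overlapped a FLAG-only peak.

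Peaks lay outside genes about as often as positions of the genome did. Of all 545 peaks, 60.6% (56.3% to 64.7%) lay outside genes, and of 255845 sequenced positions taken every 10 kb, 61.2% lay outside protein-coding genes of the annotation. The distance to the start of the assigned gene, the nearest gene downstream, had a median of 118734.5 bp (89763 to 158060) outside genes and ranged from 108 bp at *H2-T23* to 1986746 bp at *Cdh5*. By this rule only starts ahead of a peak count. The start of a gene that holds a peak usually lies behind it, so distances inside genes mostly run to another start. Over 100 kb lay 174 of the 330 outside peaks (52.7%), against 58.2% of positions outside genes and against 92 of the 215 inside peaks (42.8%). The difference from the inside peaks did not pass the test at this limit (adjusted p = 0.0637, Fisher's exact test). At a limit of 500 kb it did, with 62 outside and 17 inside peaks (adjusted p = 0.00195, Fisher's exact test). Positions inside genes were not examined, so a difference between peaks is not separated here from one between their surroundings. From 500 kb to 1 Mb lay 34 outside peaks (10.3%, against 13.8% of positions outside genes). Within 10 kb of the start lay 41 peaks (12.4%, against 9.70% of positions), and 7 of these lay within 1 kb. Over 1 Mb away lay 28 peaks (8.48%, against 8.77% of positions), of which 13 held the motif. The motif was present in 70 of 174 peaks over 100 kb away (40.2%) and in 57 of the 156 nearer ones (36.5%, a difference of 3.69 points that did not pass Fisher's exact test, adjusted p = 0.611). The 330 peaks were assigned to 302 genes. For 187 peaks (56.7%), the assigned gene was also the gene with the nearest start in either direction. That nearest start was a median of 70373 bp away for outside peaks and 21577 bp for inside peaks.

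**Figure D3:**
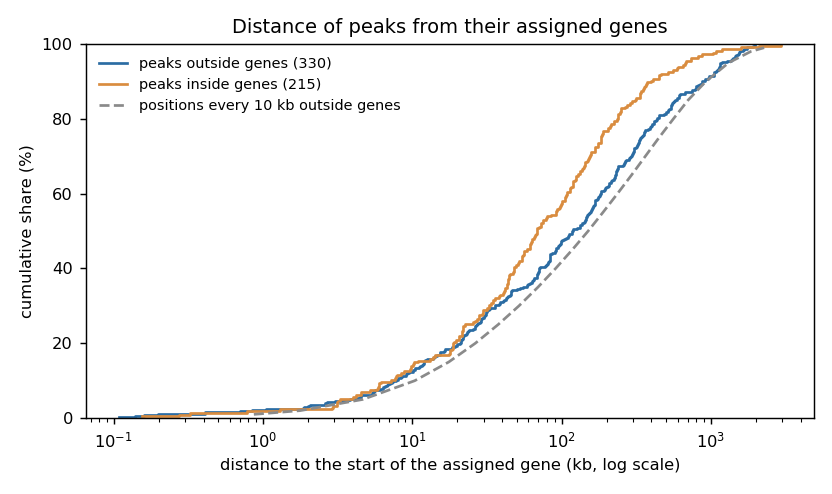
Cumulative share of peaks (%, y axis) by distance to the start of the assigned gene (kb, log scale) for 330 peaks outside and 215 inside genes, with positions every 10 kb outside genes as a dashed line. Medians were 118734.5 bp for outside peaks, 68338 bp for inside peaks and 150608 bp for the positions. For a peak inside a gene, the distance runs to the nearest start ahead of it, usually not that of the gene holding it.

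Gene deserts, taken here as intervals of at least 500 kb without a protein-coding gene, held 129 of the 327 outside peaks with such an interval, or 39.4% (34.1% to 45.0%), and 46.8% of positions outside genes. The interval around an outside peak had a median length of 280889 bp (212468 to 369005), against 425943 bp for the positions. Intervals under 50 kb held 59 peaks (18.0%, against 13.3% of positions). The widest interval, 13349598 bp on chromosome Y, held 1 peak without the motif, assigned to *Gm4064*. Interval lengths include unsequenced bases. Chromosome Y held 0.133% of the sequenced positions outside genes, so most of this interval is unsequenced. The motif was present in 48 of the 129 peaks in deserts (37.2%) and in 78 of the 198 peaks elsewhere (39.4%), a difference that did not pass Fisher's exact test (adjusted p = 0.728). In the widest intervals, over 2000 kb, 15 of 37 peaks held it (40.5%, 24.8% to 57.9%).

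**Figure D4:**
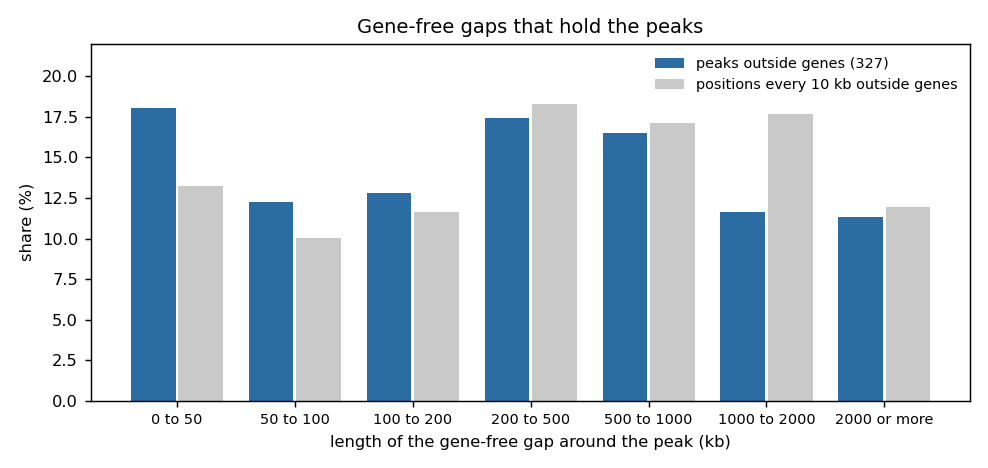
Share (%, y axis) of 327 LHX5-FLAG peaks outside genes and of positions taken every 10 kb outside genes, by the length of the gene-free interval that holds them (kb, x axis). Intervals under 50 kb held 18.0% of the peaks and 13.3% of the positions, and intervals of 1000 to 2000 kb 11.6% and 17.7%.

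Developmental transcription factors were grouped by gene symbol into homeobox genes and other families. The other families include *Lmo1*, whose LIM-only protein acts through LDB proteins, so that list is not limited to DNA-binding factors. Homeobox genes were assigned 5 of the 330 outside peaks (1.52%, against 1.47% of positions outside genes) and the other developmental factors 10 (3.03%, against 2.74%). Both lists together held 15 peaks at 14 genes, or 4.55% (2.57% to 7.39%), against 4.21% of positions, so that the share of such genes was near the background. Of these 15 peaks, 10 held the motif, whereas in the whole list of 545 peaks 36.3% did, a difference in few peaks that was not tested. Among the homeobox genes, *Six3*, which acts in the anterior forebrain and eye, had a peak of 198 bp at 118228 bp with 6 sites. *Uncx*, a paired-type homeobox gene, had a peak of 216 bp at 3471 bp with 1 site, in a sequence with further TAAT cores. *Zeb2*, which encodes a zinc finger and homeodomain repressor, had a peak of 158 bp at 1091462 bp with 1 site, in an interval of 3696713 bp that reaches to *Acvr2a*. The peaks of *Pou3f3*, a POU factor of the developing brain, at 59703 bp, and of *Dlx6*, a Distal-less factor of the ventral forebrain, at 94013 bp, held 0 sites.

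Of the other developmental factors, *Hand2*, a bHLH factor of heart, limb and sympathetic neuron development, had 2 peaks in an interval of 728589 bp between *Fbxo8* and *Hand2*. They lay 306734 bp and 232645 bp from its start, held 1 and 5 sites, and their middles were 74088 bp apart. *Tbx3*, a T-box repressor active in the developing hypothalamus, had a peak at 175850 bp with 1 site, in an interval of 905233 bp. *Foxb2*, a forkhead gene of the developing brain, had a peak at 10416 bp with 2 sites, and *Lmo1*, a LIM-only gene, a peak at 21243 bp with 2 sites of the form CTAATTAA. *Sox4*, an HMG-box gene of neuronal differentiation, had a peak at 195415 bp with 5 sites, and *Runx3*, a runt gene of sensory neurons, a peak at 25368 bp with 6. The peaks of *Arnt2*, the bHLH-PAS partner of SIM1, at 149445 bp, of *Rora*, a nuclear receptor of Purkinje cells, at 344161 bp, and of *Foxj2*, a forkhead gene, at 197 bp held 0 sites.

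Genes of the study's microarray table were assigned 13 outside peaks (3.94%, 2.11% to 6.64%), against 0.809% of positions outside genes, and 0 of the 215 inside peaks. Inside peaks were matched by their assigned gene and not by the gene they overlap. The 0 therefore does not tell whether any of them lay within a table gene. These 13 peaks belong to 10 genes, and 4 of them lie in the 1 interval before *Cdh20*; without *Cdh20* the count was 9 peaks (2.73%). The list was taken from the study with earlier results of these data known, and the counts are a description with no test. Of the 13 peaks, 9 held the motif, against 36.3% in the whole list. The peaks of *Six3*, *Dlx6*, *Foxb2*, *Tbx3* and *Lmo1* are also among the peaks of developmental factors counted above. Besides *Cdh20*, *Six3*, *Dlx6*, *Foxb2*, *Tbx3* and *Lmo1*, the genes are *Slit1*, a secreted axon guidance gene, with a peak at 12581 bp and 0 sites, *Irs4*, an insulin receptor substrate, with a peak at 137645 bp and 4 sites, *Fam198b* with a peak at 9457 bp and 2 sites, and *A430033K04Rik* with a peak at 70260 bp and 3 sites. That table comes from microarrays of embryonic tissue, which were not analysed here.

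An interval usually has a gene at either edge, whereas a peak has a single assigned gene, so edge genes of any kind are often passed over. The assigned gene was an edge gene for 227 of the 327 outside peaks with an interval. A developmental transcription factor gene stood at an edge of the interval of 35 of 327 outside peaks (10.7%, against 10.1% of positions), and 14 of these 35 peaks held the motif. For 21 of the 35 another gene had been assigned, a count that was not compared with that for other edge genes. In deserts the count was 16 of 129 (12.4%, 7.26% to 19.4%), against 12.5% of positions in deserts, and 5 of the 16 peaks held the motif. A peak of 149 bp with 1 site lay 359443 bp from *Dach1*, a factor of eye and limb development, and was assigned to *Klhl1* at 908302 bp. A peak with 3 sites lay 228964 bp from *Emx2*, a homeobox gene of the cortex, and was assigned to *Pdzd8*, and a peak with 2 sites lay 172714 bp from *Neurod6*, a neuronal bHLH gene, and was assigned to *Inmt*. A peak with 1 site lay 9573 bp from *Neurod2*, a related neuronal bHLH gene, and 9183 bp from *Ppp1r1b*, its assigned gene, which encodes a signaling protein of striatal neurons. Peaks beside *Sox9* at 91384 bp, *Olig3* at 68173 bp, *Gata3* at 263391 bp and *Meis2* at 419724 bp held 0 sites.

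Genes of axon guidance and cell adhesion were assigned 14 outside peaks at 11 genes (4.24%, against 5.68% of positions), of which 6 held the motif. Of these 14 peaks, 9 were assigned to cadherin or protocadherin genes, which encode calcium-dependent adhesion proteins (2.73% of the 330, 1.26% to 5.11%, against 1.86% of positions). This group was picked after its values were seen, and without the 4 *Cdh20* peaks its share was 1.52%. *Cdh20*, a type II cadherin, was assigned 4 peaks, more than any other gene, at 796234, 916487, 1152776 and 1445339 bp in an interval of 4282586 bp that begins at *Cntnap5b*. The peaks at 796234 and 1152776 bp held 5 and 6 sites and the other 2 held 0. *Cdh6* had a peak at 1086181 bp with 1 site in the interval of 3604461 bp toward *Cdh9*, and *Cdh8* a peak at 1977151 bp with 3 sites. *Cdh7* and the protocadherin gene *Pcdh7* had peaks at 876803 and 1137469 bp with 0 sites, and the *Pcdh7* peak consisted only of repeated words. *Sema6d*, a semaphorin, had a peak at 19870 bp with 3 sites. Secreted signals and their receptors were assigned 3 peaks (0.909%, against 1.24% of positions), of which 2 held the motif. They are the peak of *Wnt9b*, a Wnt ligand of kidney development, at 7804 bp with 4 sites, and the peak of *Fgf12* at 295352 bp with 4 sites. *Fgf12* entered this list by its symbol alone, since it encodes an intracellular FGF homologous factor of sodium channels and not a secreted signal. Ion channels and neurotransmitter receptors were assigned 4 peaks (1.21%, against 2.34%). Of these the glutamate receptor gene *Gria1* had 2 sites and the sodium channel gene *Scn8a* had 4. Chemosensory receptor genes were assigned 8 peaks (2.42%, against 3.13%), 2 of them with the motif, and 6 of these 8 peaks had over 50% repeated words.

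**Figure D5:**
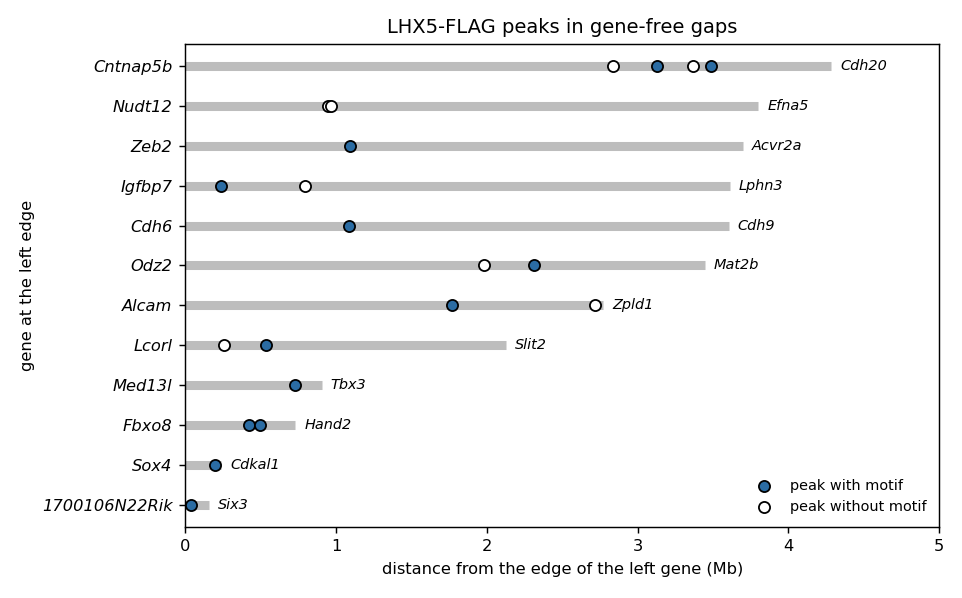
LHX5-FLAG peaks in 12 gene-free intervals beside named genes. Each grey bar runs from the edge of the left gene to the edge of the right gene (Mb, x axis); blue points are peaks with the motif and white points peaks without it. The 4 *Cdh20* peaks lie in the part of the 4282586 bp interval nearer to *Cdh20*.

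Most outside peaks stood alone. Another LHX5-FLAG peak had its middle within 100 kb of 39 of the 330 outside peaks (11.8%) and of 11 of the 215 inside peaks (5.12%, adjusted p = 0.028, Fisher's exact test). This call was lost without the peaks with over 50% repeated words (adjusted p = 0.207, Fisher's exact test) and without 9 peaks of chromosome 12 that share words (adjusted p = 0.0827). Having a neighbor is mutual, so both peaks of a pair enter the count, and the test takes them as independent. The 39 outside peaks lay in 20 clusters, and 37 of them had an outside peak within 100 kb. No background share of neighbors was computed. Outside peaks with over 50% repeated words had such a neighbor in 17 of 88 cases (19.3%) and the others in 22 of 242 (9.09%, adjusted p = 0.0224, Fisher's exact test, among the 7 later tests). The clusters were small, with at most 3 peaks. A cluster of 3 held the peak of *A430033K04Rik* and 2 peaks of *1700123K08Rik* with 3, 1 and 1 sites. At 5 genes (*Cdk8*, *Rpl21*, *1700123K08Rik*, *E330021D16Rik* and *4930519F16Rik*) the middles of 2 outside peaks were less than 1 kb apart, and the peaks of the first 3 of these genes held the motif. These 10 outside peaks, against 0 inside peaks, entered the count within 100 kb as separate peaks. Whether any of them were parts of 1 bound region was not tested. Of the 302 assigned genes, 25 had at least 2 outside peaks, led by *Cdh20* with 4 and *Gm10479* with 3. Others with 2 were *Nudt12*, whose peaks were 14469 bp apart in an interval of 3800737 bp toward the ephrin gene *Efna5*, and *Igfbp7*, *Nudcd2*, *Rpl24* and *Lcorl*, each with 1 motif-bearing peak in an interval of over 2 Mb.

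Chromosome 12 held 30 of the 330 outside peaks (9.09%, against 4.96% of positions), of which 14 had the motif. A group of 9 peaks between positions 19484046 and 24949369, assigned to *Gm6802*, *Gm10479*, *Gm17680*, *Gm17391*, *Taf1b*, *Gm10330* and *Gm9312*, shared 32-bp words in all 36 pairs, from 4.17% to 65.1% of the words of the smaller peak. All 9 peaks held the motif, with 2 to 4 sites each, and at least 68.2% of their words were repeated, so that they do not count as 9 independent sequences. The stretches around the sites of 4 of them are shown to make the likeness visible, with 20 bases on either side where the peak reaches that far. The *Gm17680* and *Taf1b* stretches are from the minus strand of mm9 and the others from the plus strand. From the first to the last site the span was 38 bp in each, and 37 or 38 of these bases equalled those of the *Gm10479* peak.
Gm10479 peak, chr12:20190874-20190951, plus strand: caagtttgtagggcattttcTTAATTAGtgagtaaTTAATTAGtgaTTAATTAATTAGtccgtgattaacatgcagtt
Gm17680 peak, chr12:22067084-22067161, minus strand: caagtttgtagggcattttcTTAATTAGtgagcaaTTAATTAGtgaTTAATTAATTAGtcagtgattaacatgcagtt
Gm17391 peak, chr12:22830073-22830150, plus strand: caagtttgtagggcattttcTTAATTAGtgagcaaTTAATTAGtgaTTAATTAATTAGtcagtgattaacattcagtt
Taf1b peak, chr12:24340872-24340947, minus strand: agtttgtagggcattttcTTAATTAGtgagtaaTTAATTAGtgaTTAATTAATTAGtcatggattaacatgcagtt

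By chromosome, chromosome 5 held 28 outside peaks (8.48%, against 5.37% of positions), of which 16 had the motif. Chromosome X held 12 (3.64%, against 7.48%), of which the *Irs4* peak was the 1 with the motif. Chromosome 10 held 27 (8.18%, against 4.87%), of which 8 had the motif.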

How the data were processed

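ChIP-Seq was made with an anti-FLAG antibody in Neuro2a cells that expressed LHX5-FLAG or only the tag, and 1 precipitated and 1 input library came from each. Per the labels and the paper's methods, the authors aligned the reads to mm9 using Bowtie, called peaks with MACS against the input and assigned each peak to its nearest downstream gene with PeakAnalyzer. Positions and distances were deposited, in base pairs, without read counts or scores. Peaks with an empty column of overlapping genes were taken as outside genes. The assigned gene and the distance were recomputed from GENCODE mouse release M1 and were equal, within 1 bp, for 330 of 330 peaks.

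Sequences were read from NCBIM37, the assembly of mm9. The background was a grid of sequenced positions every 10 kb. Gene lists were symbol families. Shares were compared with two-sided Fisher's exact tests, adjusted over 9 tests at 0.05, with exact binomial 95% intervals, and medians have intervals from the order of the values. The members and lists were chosen with earlier results of these data known. A set of 7 tests and the measures of repeated words came after values had been seen. Genes were named if they were in the developmental transcription factor lists or the study's microarray table, had 2 or more outside peaks, or were among the 5 peaks with the most sites, widest intervals or greatest length, and genes of the other lists, ties and interval edges were named after their values were seen. The procedures were tested on simulated data. The software was scipy 1.17.1, pysam 0.24.0, pandas 2.3.3, numpy 2.4.6 and matplotlib 3.10.9 under Python 3.11.15. The result for 1 gene measured by qPCR is not reported here.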

Additional observations from a re-analysis of the deposited data

How the results depend on the processing

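Of 67 alternatives to the 9 tests, 54 kept the direction and the side of the threshold, among them 6 of 6 for GC content (differences of -16.93 to -11.57 percentage points, adjusted p 0.000453 to 0.0316). The difference in distance, outside minus inside, passed the test with the 500 kb limit (10.88 points), without peaks longer than 1000 bp (10.62), with peaks outside genes of any type (10.17) and without peaks with over 50% repeated words (12.85). The difference in neighbors no longer passed with genes of any type (4.417 points), a 10 kb limit (2.1), a 1000 kb limit (9.76), without peaks with over 50% repeated words (4.379) and without the chromosome 12 peaks that share words (5.164), and had no value with 1 peak kept per cluster. The motif share of far minus near peaks, 3.691 points, turned to -2.478 without peaks with over 50% repeated words and was 12.05 with TAATTA (adjusted p = 0.0635, Fisher's exact test). The motif share of deserts minus other intervals turned to 6.683 points with TAATTA, 3.066 with the central 100 bp of each peak and 0.1746 with deserts of at least 1000 kb. None of these reversed differences passed the test, and the cause was not tested. The alternatives without repeated words and without the chromosome 12 peaks were chosen after seeing the data. No paired analysis of libraries was possible because each group has 1 library of each kind. The pairing of windows with their peaks was not used. With 1 peak list and no read counts, precision is set by the number of peaks, and the error between replicates is unknown.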
